A study of Mus musculus with 2 samples.

Results

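Polyamine synthesis and breakdown was followed here through 10 genes: the synthetic enzymes Odc1, Amd1, Srm and Sms, the antizyme system Oaz1, Oaz2 and Azin1, and the catabolic enzymes Sat1, Smox and Paox. They were taken by symbol from the 22756 gene rows of the deposited count files, and all 10 symbols were listed. The counts are of footprints, the pieces of mRNA that ribosomes shield from nuclease, in the ileum (the end of the small intestine). All mice were C57BL/6, wild type and at postnatal day 21, and 1 library came from animals fasted for 48 h and 1 from fed animals; the sources used here do not give how many animals each holds. Each condition thus had n = 1, every difference below is between these libraries without a replicate check, and no p-values were computed. A footprint count depends on both the amount of a gene's mRNA and its translation, which cannot be told apart without a matched mRNA library. In whole tissue, fewer cells of a type and less RNA per cell cannot be told apart either.

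Putrescine, spermidine and spermine are small, positively charged molecules that bind nucleic acids and are needed for cell growth, and the renewing gut epithelium is known for high demand. Ornithine decarboxylase makes putrescine, and spermidine and spermine synthase each add an aminopropyl group that comes from decarboxylated S-adenosylmethionine. Antizymes bind ornithine decarboxylase and send it to the proteasome, and antizyme inhibitor, a relative of the decarboxylase without its activity, draws antizyme away. Breakdown runs through acetylation of spermidine and spermine followed by oxidation, or through direct oxidation of spermine.

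The measured synthetic enzymes Odc1 and Srm were lower in the fasted library, both antizymes and Sat1 were higher, and Smox was lower. Azin1 had the highest counts of the 10 genes and did not reach the 1.5-fold threshold. Of the 10 genes, 7 had at least 30 counts summed over both libraries, the minimum for a gene to be counted as measured. A gene was called higher or lower when its fasted/fed ratio, from scaled counts, was at least 1.5-fold and its 95% exact (Clopper-Pearson) interval excluded 1. Counts were scaled with TMM, which sets the typical gene's ratio near 1, and are given as CPM (a gene's count per 1000000 scaled gene counts). By this rule 3 of the 7 were higher, 3 were lower and 1 was neither. Across all 11333 measured genes 17.2% were higher and 17.3% lower, so 34.6% were called in either direction. The median log2 ratio of the 7 genes was -0.40, against 0.0024 over all measured genes, and it hides a split in which values ran between -1.48 and 0.98.

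The call of a direction depended on the scaling. Plain CPM, in which each count is divided by the library's total and nothing else, lowered every log2 ratio by 0.32. Under it 0 of the 7 genes were higher and 4 were lower, Azin1 joining Odc1, Srm and Smox, against 8.86% of all measured genes higher and 31.2% lower (40.1% in either direction). The intervals cover counting error only, since each group has 1 library. The libraries were amplified by PCR and the labels name no molecular identifiers, so the intervals may be too narrow even for counting error.

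**Figure D1:**
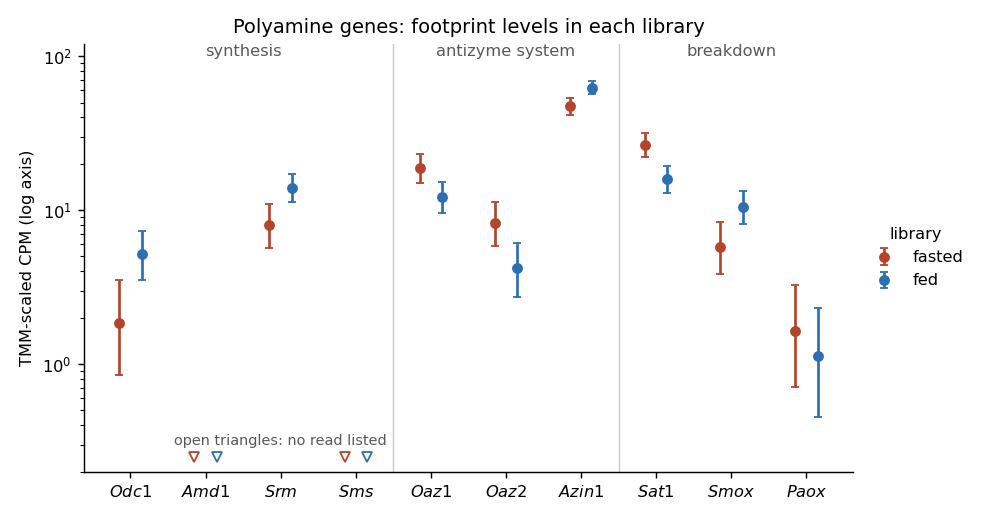
TMM-scaled CPM (log axis) of each gene in the fasted (red) and fed (blue) library, with bars for the 95% exact Poisson interval of the count and open triangles for genes with no read listed. Odc1, Srm, Azin1 and Smox lie lower in the fasted library and Oaz1, Oaz2 and Sat1 higher; Paox is low in both.

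Among the enzymes of synthesis, Odc1, ornithine decarboxylase and the rate-limiting enzyme of the pathway (ENSMUSG00000011179; mm10 chromosome 12, plus strand, 17544794 to 17551505), had 9 counts in the fasted library and 32 in the fed library. These were 1.85 CPM in the fasted and 5.15 CPM in the fed library, and their Poisson intervals (0.847 to 3.52 CPM in the fasted and 3.52 to 7.27 CPM in the fed library) lay just apart. On the log2 scale its ratio was -1.48 with an interval of -2.73 to -0.37, which is 2.78-fold lower and the lowest of the 7 ratios. Srm, spermidine synthase (ENSMUSG00000006442, chromosome 4, 148591503 to 148594993, plus strand), had 39 counts in the fasted library and 87 in the fed library. Its levels were 8.03 CPM in the fasted and 14.0 CPM in the fed library, with Poisson intervals that did not overlap, and the log2 ratio was -0.80 (-1.39 to -0.24). Both genes kept their lower call under plain CPM, at log2 ratios of -1.80 for Odc1 and -1.12 for Srm.

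Amd1, which decarboxylates S-adenosylmethionine (ENSMUSG00000075232, chromosome 10, 40287458 to 40302186, minus strand), and Sms, spermine synthase (ENSMUSG00000071708, chromosome X, 157443855 to 157492287, minus strand), were given as NA in both libraries and read as 0 counts. A count of 0 allows up to 3 assigned reads as a one-sided limit, or 0.617 CPM in the fasted and 0.483 CPM in the fed library, and no ratio can be given. The 2-sided Poisson interval used for the other genes reaches 0.759 CPM in the fasted and 0.593 CPM in the fed library. That limit holds for reads assigned to the gene, and the deposited files set aside the reads that aligned to several places, 39.9% of counted reads in the fasted and 41.4% in the fed library. The coding sequence of Sms exists whole elsewhere in the annotated transcripts, and that of Amd1 nearly so. The starts of Sms and of its processed pseudogene are shown because they are the same letter for letter, on the same chromosome, as were all 1098 coding bases.
Sms, coding bases 1 to 60: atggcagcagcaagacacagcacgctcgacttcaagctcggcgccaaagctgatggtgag
Sms-ps, same stretch: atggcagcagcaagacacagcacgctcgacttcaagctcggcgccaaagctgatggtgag

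Amd1 has an intronless protein-coding copy, Amd2, also on chromosome 10, whose symbol is not among the gene rows. Their 1002 coding bases differ at a single position, G796C, counted from the A of the start codon with the Amd1 base first. The stretch around it, coding bases 766 to 825, is shown with that base in capitals.
Amd1: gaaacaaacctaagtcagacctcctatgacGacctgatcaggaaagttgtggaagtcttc
Amd2: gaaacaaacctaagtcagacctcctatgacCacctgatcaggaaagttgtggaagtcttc

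To put the other genes on the same footing, each coding sequence was read in 28-base words, close to the length of a footprint, and a word was called unique when no other annotated gene held it exactly on either strand. Amd1 had 0 unique words of 975 and Sms 0 of 1071, and these were the members without a read. Sms shared an exact word with 7 other annotated genes and Amd1 with 8, nearly all of them processed pseudogenes. Odc1 had 212 unique words of 1356 (15.6%) and shared words with 22 other genes, so its 41 reads over both libraries may come from a small part of its coding sequence. The longest unbroken run of unique words in Odc1, coding bases 277 to 349, shows how short such a part is.
Odc1: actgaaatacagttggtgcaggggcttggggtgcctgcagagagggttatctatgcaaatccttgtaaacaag

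Srm, by contrast, had 691 unique words of 879 (78.6%), and Azin1 and Smox had 100%. Oaz1 had only 28 unique words of 655, Oaz2 155 of 541, Sat1 264 of 486 and Paox 184 of 1485. When a copy with 1 mismatch also counted as shared, Oaz1 had 0 unique words and Odc1 8, yet both had reads. Over the whole Sms transcript 70.9% of words were unique, all of them reaching outside the coding sequence, and it had no read there either; the sources used here do not say whether untranslated regions were counted. The part of these copies in the counts was not tested.

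**Figure D2:**
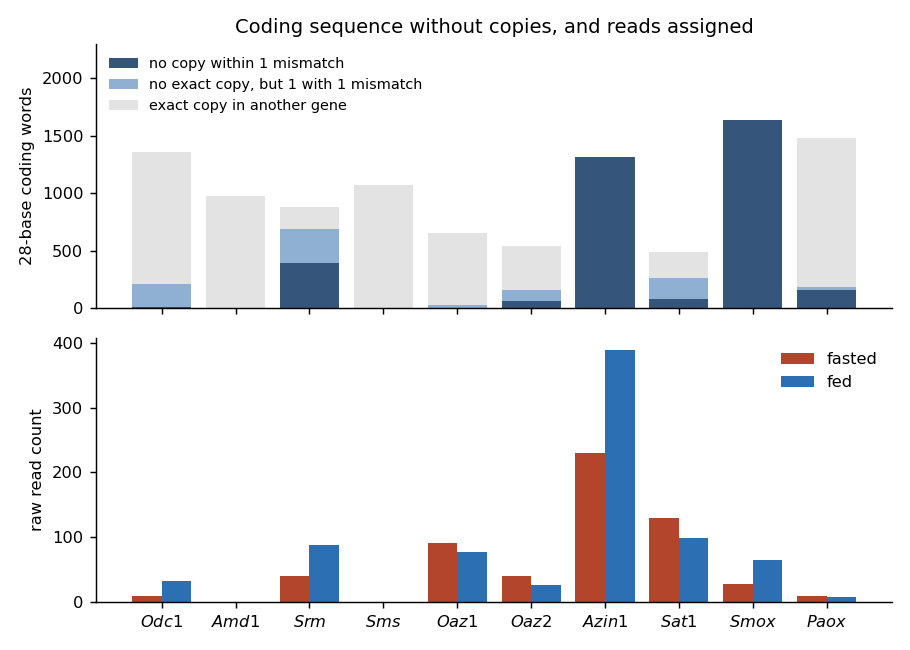
Top, the number of 28-base words in each coding sequence, split into words with no copy in another annotated gene within 1 mismatch (dark), words whose nearest copy has 1 mismatch (light blue) and words with an exact copy (grey). Bottom, raw read counts in the fasted (red) and fed (blue) library; Amd1 and Sms have no blue word above and no read below.

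Both antizymes, the brakes on ornithine decarboxylase, were higher in the fasted library. Their full-length proteins are made only when ribosomes shift reading frame at an early stop codon, a shift that polyamines favour, so the site is shown for both genes with the last codon read before the shift and the stop codon (TCC TGA) in capitals. The T of the stop codon is the base that is skipped, and it was copied from a transcript that holds it because the coding transcript of the annotation leaves it out.
Oaz1: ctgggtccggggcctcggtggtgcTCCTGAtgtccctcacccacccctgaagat
Oaz2: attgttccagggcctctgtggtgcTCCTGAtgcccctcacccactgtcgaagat
In Oaz1 the capitals lie at chromosome 10, 80828292 to 80828297, and in Oaz2 at chromosome 9, 65686269 to 65686274 (mm10, plus strand). Counting TCC, 68 sense codons precede the stop codon in Oaz1 and 32 in Oaz2. Of the 23 words that span the capitals, 0 were unique in Oaz1 and 0 in Oaz2. The deposited values are 1 count per gene, so reads before and after the shift cannot be told apart.

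Oaz1 (ENSMUSG00000035242, chromosome 10, 80826656 to 80829290) had 91 counts in the fasted library and 76 in the fed library, or 18.7 CPM in the fasted and 12.2 CPM in the fed library. Its log2 ratio was 0.61 (0.16 to 1.07), a 1.53-fold higher level that just passed the threshold. Oaz2 (ENSMUSG00000040652, chromosome 9, 65668001 to 65690300) had 40 counts in the fasted library and 26 in the fed library, or 8.23 CPM in the fasted and 4.18 CPM in the fed library, a log2 ratio of 0.98 (0.23 to 1.75). The Poisson intervals of the levels overlapped slightly between the libraries for both antizymes. Under plain CPM neither antizyme was called, at 0.29 (-0.16 to 0.75) for Oaz1 and 0.65 (-0.094 to 1.43) for Oaz2.

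Azin1, the antizyme inhibitor (ENSMUSG00000037458, chromosome 15, 38487427 to 38519266, minus strand), had 230 counts in the fasted library and 389 in the fed library. Its levels were 47.3 CPM in the fasted library (41.4 to 53.9) and 62.6 CPM in the fed library (56.5 to 69.1), and these intervals did not overlap. The log2 ratio was -0.40 (-0.64 to -0.16), so the interval excluded 1 while the level was 1.32-fold lower and not called; under plain CPM it was called lower at -0.73 (-0.97 to -0.49). The antisense gene Gm49077 overlaps Azin1 over 481 bases, and the strand setting is not given, so reads there cannot be told apart.

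The breakdown enzymes differed in direction. Sat1, the acetyltransferase that starts the breakdown of spermidine and spermine (ENSMUSG00000025283, chromosome X, 155213132 to 155216449, minus strand), had 129 counts in the fasted library and 99 in the fed library. Its levels were 26.5 CPM in the fasted library (22.2 to 31.5) and 15.9 CPM in the fed library (12.9 to 19.4), which did not overlap, and its log2 ratio was 0.74 (0.35 to 1.13), a 1.67-fold higher level. Under plain CPM the Sat1 interval still excluded 1, at 0.41 (0.025 to 0.81), without reaching 1.5-fold. Smox, which oxidises spermine back to spermidine (ENSMUSG00000027333, chromosome 2, 131491496 to 131525922, plus strand), had 28 counts in the fasted library and 65 in the fed library. Its levels were 5.76 CPM in the fasted library (3.83 to 8.33) and 10.5 CPM in the fed library (8.07 to 13.3), which overlapped slightly, and the log2 ratio was -0.86 (-1.55 to -0.20), a 1.81-fold lower level that stayed called under plain CPM at -1.18. Paox, the peroxisomal oxidase of acetylated polyamines (ENSMUSG00000025464, chromosome 7, 140115799 to 140137224, plus strand), had 8 counts in the fasted library and 7 in the fed library. It stayed below the minimum, its log2 ratio of 0.55 had an interval of -1.11 to 2.24, and no difference was detectable at this depth. Its span overlaps Echs1 on the other strand by 678 bases.

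**Figure D3:**
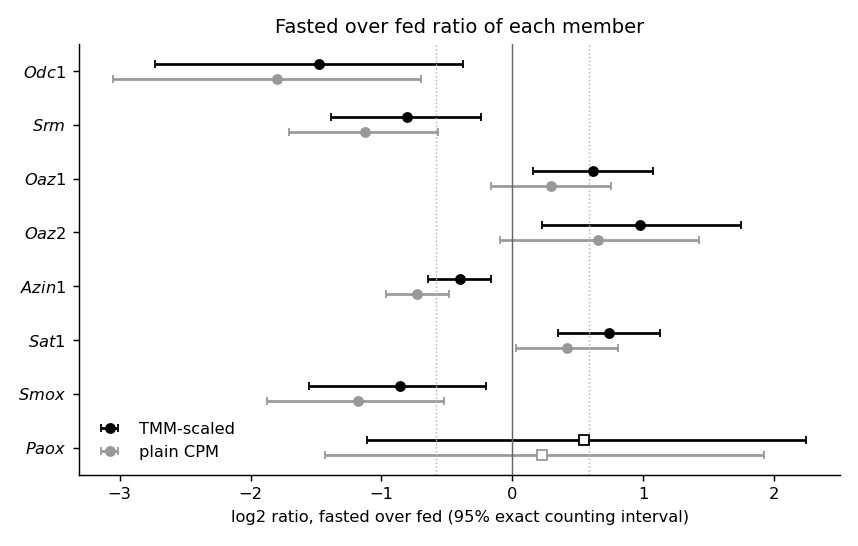
Fasted over fed log2 ratio of the 8 genes with a read, with 95% exact counting intervals, for TMM-scaled counts (black) and plain CPM (grey); dotted lines mark 1.5-fold and open squares a gene under 30 counts. Odc1, Srm and Smox lie left of the lower line under both scalings, and Oaz1, Oaz2 and Sat1 lie right of the upper line only with TMM, except that Oaz2 stays right of it under plain CPM with an interval that includes 0.

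Summed by role, the 4 synthetic enzymes had 48 counts in the fasted and 119 in the fed library, the antizyme system 361 in the fasted and 491 in the fed library, and the breakdown enzymes 165 in the fasted and 171 in the fed library. All 10 genes took 0.0106% of gene counts in the fasted library and 0.0141% in the fed library. On the TMM scale the sums over all 10 were 118 CPM in the fasted and 126 CPM in the fed library.

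Ratios between members within a library do not depend on how the libraries are scaled, and were computed for all 21 pairs of the 7 measured genes after the values had been seen. Such a ratio still carries the lengths of both genes, so only its difference between libraries is informative. The count of Azin1 over Oaz1 was 2.53 in the fasted and 5.12 in the fed library, a fasted/fed ratio of 0.494 (95% exact conditional interval 0.344 to 0.708). Azin1 over Oaz2 was 5.75 in the fasted and 15.0 in the fed library, a ratio of 0.384 (0.219 to 0.666). The footprint count of Azin1 was thus lower relative to that of each antizyme gene in the fasted library under any scaling of the libraries. These are counts per gene, so full-length antizyme cannot be told apart in them.

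Odc1 over Oaz1 was 0.0989 in the fasted and 0.421 in the fed library, a ratio of 0.235 (0.0933 to 0.546). Sat1 over Odc1 was 14.3 in the fasted and 3.09 in the fed library, 4.63-fold higher (2.03 to 11.5), and Sat1 over Smox was 4.61 in the fasted and 1.52 in the fed library, 3.02-fold higher (1.76 to 5.26). The 12 pairs that set Oaz1, Oaz2 or Sat1 against Odc1, Srm, Azin1 or Smox all had intervals that excluded 1, with ratios between 2.03 and 5.47. Of the 9 pairs on the same side, 0 had such an interval; Odc1 over Srm, for example, had a ratio of 0.627 (0.240 to 1.51). The sides were set by whether each gene's own ratio was above or below 1, so this split describes the ratios already given and is no separate evidence. The intervals are wide, and pairs that share a gene are not independent.

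**Figure D4:**
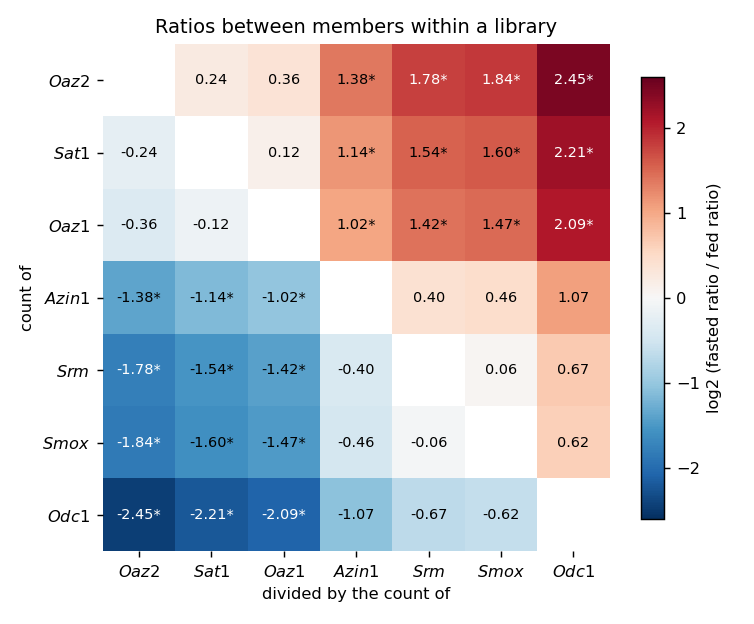
For each pair of measured genes, the log2 of the fasted over the fed value of the ratio of their counts (row gene divided by column gene); asterisks mark 95% exact intervals that exclude 0 on this scale. Values in the block of Oaz2, Sat1 and Oaz1 over Azin1, Srm, Smox and Odc1 run between 1.02 and 2.45.

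Levels of different genes were compared per kilobase. Per kilobase of coding sequence, the order in the fasted library was Sat1 (51.7 CPM per kb), Azin1 (35.2), Oaz1 (27.5), Oaz2 (14.5), Srm (8.86), Smox (3.46) and Odc1 (1.34). In the fed library, on that scale, it was Azin1 (46.6 CPM per kb), Sat1 (31.0), Oaz1 (17.9), Srm (15.4), Oaz2 (7.36), Smox (6.28) and Odc1 (3.72). On this scale Sat1 and Azin1 changed places at the top, and their counting intervals did not overlap in either library. Neighbours whose intervals did overlap were Azin1 and Oaz1, Oaz2 and Srm, and Smox and Odc1 in the fasted library, and Oaz1 and Srm, Oaz2 and Smox, and Smox and Odc1 in the fed library. Divided by unique words in place of the whole coding length, Odc1 had 8.74 CPM per kb in the fasted and 24.3 in the fed library, and its fed interval (16.6 to 34.3) overlapped those of its neighbours Oaz2 (27.0) and Srm (20.3). On that scale Smox was last among the measured genes in both libraries, at 3.52 CPM per kb in the fasted and 6.38 in the fed library. Oaz1 was first, though its level rests on 28 words. Paox, under the minimum count, had 8.95 CPM per kb in the fasted and 6.12 in the fed library. Sat1 was then above Azin1 in both libraries, at 101 against 35.9 CPM per kb in the fasted and 60.3 against 47.5 in the fed library, where their intervals overlapped, so the exchange of places was lost. When copies with 1 mismatch also counted as shared, Odc1 was first in the fed library at 644 CPM per kb, resting on 8 words. Sat1 was then first in the fasted library at 324 CPM per kb, and Oaz1 had no unique word left. The order thus depends on the length used, and the fasted/fed ratio of each gene does not.

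Markers of the tissue were checked beside these values. All 12 listed ileal enterocyte markers had reads, with a summed level of 73465 CPM in the fasted and 31441 CPM in the fed library, 9 being higher and 0 lower. Of 14 markers of proliferating crypt cells, 0 were higher and 12 lower, with no marker at 0. They summed to 601 CPM in the fasted and 1331 CPM in the fed library. Smooth muscle markers summed to 2427 CPM in the fasted and 4626 CPM in the fed library (6 of 6 lower), fibroblast markers to 1665 CPM in the fasted and 4352 CPM in the fed library (4 of 6 lower, 2 higher), and B and plasma cell markers to 7685 CPM in the fasted and 12955 CPM in the fed library (6 of 6 lower). Goblet cell markers had 4 of 7 lower, Paneth cell markers 1 of 5 measured higher with Defa17 at 0, and T cell markers 1 of 6 lower. The exocrine pancreas list had 1 of 6 genes in the files, with 1 read in the fasted and 2 in the fed library. Under plain CPM the enterocyte list had 7 genes higher and 1 lower, and proliferating crypt cells 0 higher and 14 lower. Fibroblasts then had 0 higher and 4 lower, T cells 0 higher and 2 lower, and Paneth cells 0 in either direction. The shares over all measured genes under plain CPM were 8.86% higher and 31.2% lower. Of the liver list 2 of 6 genes were measured, 1 of them higher, with Serpina1a at 0. With TMM, Odc1, Srm, Smox and the uncalled Azin1 were lower, as were most proliferating cell, smooth muscle and plasma cell markers. Sat1 and the antizymes were higher, as were most enterocyte markers. Fibroblast markers were split, goblet cell markers were lower or neither, and most Paneth and T cell markers were neither. Across all measured genes 17.2% were higher and 17.3% lower with TMM, so a shared direction alone says little. Under plain CPM 0 members were higher, while 7 of the 12 enterocyte markers were. The part of cell makeup in the polyamine values was not tested.

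Genes that feed and drain the pathway were taken from 6 lists. The shares to set beside their calls, over all measured genes, were 17.2% higher and 17.3% lower. For ornithine and arginine supply, 2 of 7 measured genes were higher, 1 lower and 4 neither. Arg2, the mitochondrial arginase that releases ornithine from arginine, had 2410 counts in the fasted and 1200 in the fed library (log2 ratio 1.36, 1.26 to 1.46), and Agmat, agmatinase, 35 in the fasted and 19 in the fed library (1.24, 0.39 to 2.12). Gatm, which releases ornithine while making a creatine precursor, had 36 counts in the fasted and 72 in the fed library (-0.64, -1.26 to -0.048). Arg2 was higher and Odc1 lower in the fasted library, and a link between them was not tested.

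Of 8 measured genes of methionine supply and methylthioadenosine salvage, which recycles the by-product of spermidine and spermine synthesis, 2 were lower, 0 higher and 6 neither. Mtap, the phosphorylase that opens the salvage route, had 34 counts in the fasted and 70 in the fed library (-0.69, -1.32 to -0.076), and Apip, a later enzyme of it, 18 in the fasted and 49 in the fed library (-1.09, -1.96 to -0.28). Mat2a, which makes S-adenosylmethionine outside the liver, had 315 counts in the fasted and 470 in the fed library (-0.22, -0.43 to -0.013) and was not called; it was chosen with its value known.

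Spermidine is also the donor for hypusine, a modified lysine of the translation factor eIF5A. Dohh, which completes hypusine, had 132 counts in the fasted and 69 in the fed library (1.29, 0.86 to 1.73) and was called higher. Dhps, which transfers the aminobutyl group of spermidine, had 49 in the fasted and 60 in the fed library (0.063, -0.51 to 0.63). Eif5a had 588 in the fasted and 883 in the fed library (-0.23, -0.38 to -0.079), and neither was called. Eif5a2 had 3 counts in the fasted and 2 in the fed library.

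Polyamine transport was the list with most calls, 4 of 9 measured genes higher, 4 lower and 1 neither. Across all measured genes 34.6% were called in either direction. The median log2 ratio of the transport list was -0.40. Slc47a1, an organic cation exporter, had 410 counts in the fasted and 25 in the fed library (4.39, 3.81 to 5.04), Slc3a2, a heavy chain of amino acid transporters, 5603 in the fasted and 2551 in the fed library (1.49, 1.42 to 1.56), and Slc22a3, an organic cation transporter, 68 in the fasted and 23 in the fed library (1.92, 1.22 to 2.67). Atp13a3, a polyamine-transporting ATPase, had 211 counts in the fasted and 564 in the fed library (-1.06, -1.30 to -0.83), and Slc12a8, of the cation chloride cotransporter family, 252 in the fasted and 544 in the fed library (-0.76, -0.98 to -0.54). These carriers also move other substrates, and their levels say nothing of polyamine flux.

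Of the paralogs and the terminal oxidase, 5 of 6 symbols were among the gene rows, all but Amd2, and Aoc1 alone was measured. Aoc1, diamine oxidase, which degrades putrescine and histamine, had 14039 counts in the fasted and 15225 in the fed library, a log2 ratio of 0.24 (0.20 to 0.27) that was not called. Sat2, the relative of Sat1, had 16 counts in the fasted and 4 in the fed library, Azin2 had 5 in each, Satl1 had 0 in the fasted and 2 in the fed library, and Oaz3 was at 0 in both. In the MYC network, whose head MYC is a known activator of Odc1 transcription, 2 of 8 measured genes were higher and 0 lower. Max, the partner of MYC, had 449 counts in the fasted and 229 in the fed library (1.33, 1.09 to 1.56), and Mnt, a MAX-binding repressor, 135 in the fasted and 108 in the fed library (0.68, 0.30 to 1.06). Myc itself, likewise chosen with its value known, had 176 counts in the fasted and 269 in the fed library (-0.26, -0.54 to 0.023) and was not called; under plain CPM its interval excluded 1, at -0.58 (-0.86 to -0.30). Plain CPM gave 2 higher and 2 lower for ornithine and arginine supply, and 3 higher and 5 lower for transport. The MYC network then had 1 higher and 0 lower, and the other 3 lists kept their counts of called genes. Of all measured genes 8.86% were higher and 31.2% lower under plain CPM.

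**Figure D5:**
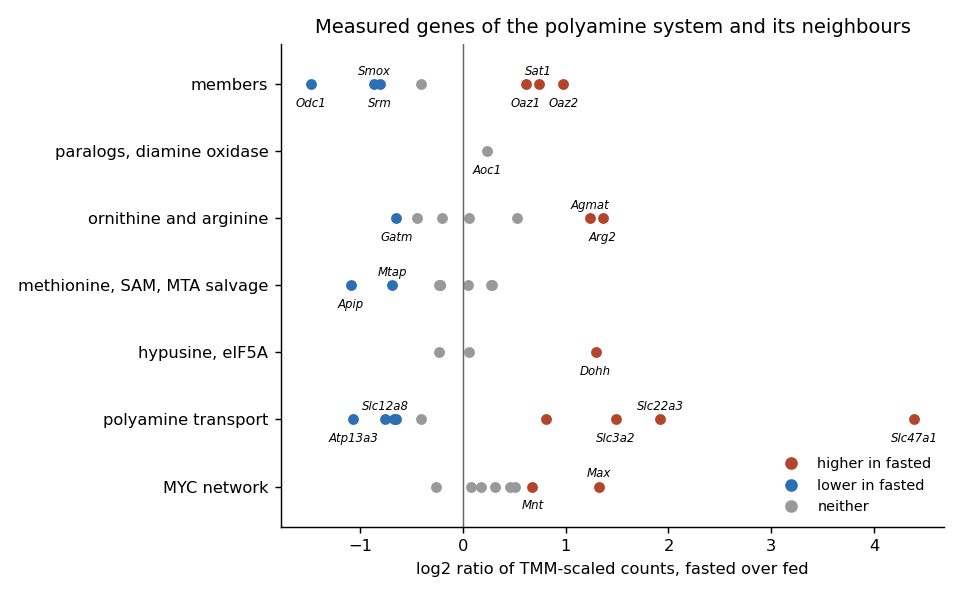
Fasted over fed log2 ratio (TMM-scaled) of every measured gene of the polyamine system and of the 6 related lists; red points were called higher, blue points lower and grey points neither. The members split to both sides, transport genes spread widest with Slc47a1 at 4.39, and Aoc1 sits near 0.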

How the data were processed

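The values deposited by the authors are unnormalised whole-number counts of reads for each gene symbol, for 1 footprint library of fasted and 1 of fed ileum. Per the submitters' processing notes, which give neither roles nor order, the build was mm10 and the tools were HTSeq, STAR, Bowtie 1.1.2 and cutadapt. The sources used here do not give the annotation, the strand setting or a filter on footprint length. Totals of unassigned reads were left out of library sizes, which were 5434252 gene counts in the fasted and 5558620 in the fed library; assigned reads were 38.9% of counted reads in the fasted and 45.0% in the fed library. Entries given as NA were read as 0. TMM came from edgeR 4.0.16 (R 4.3.3), used for scaling only, and median-ratio factors from DESeq2 1.42.0. Intervals were computed in SciPy 1.17.1 and the functions were tested on simulated libraries. No test between conditions was made, as each has 1 library. Medians use log2 ratios with 0.5 counts added; ratios of single genes have no added count.

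Coordinates, coding sequences and printed sequences are from GENCODE vM21 (GRCm38, the assembly of mm10). No genome was used, so uniqueness was judged among 141767 annotated transcripts, and copies outside them were not searched. For the antizymes the skipped base was put back. The 10 members and all lists were chosen with earlier results of these data known. Named genes are all members and, per related list, up to 3 called genes in its main direction and 2 in the other by the interval bound nearest to 1 (for the transport list, split evenly, 3 higher and 2 lower). Lists of at most 4 genes and the paralogs are named in full. Alternatives were other scalings, minimum counts, thresholds, intervals, added counts, word lengths of 25 and 32, and, added after seeing the data, words with up to 1 mismatch.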

Additional observations from a re-analysis of the deposited data

How the results depend on the processing

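Median-ratio, upper-quartile and both other TMM settings left the same 3 members higher and the same 3 lower, as did dropping the minimum count. Plain CPM gave 0 higher members, and 1004 higher and 3536 lower among all genes, against 1954 and 1962. A minimum of 200 counts left 1 higher member (Sat1) and 0 lower, since the other called members fell under it. It gave 1185 higher and 892 lower among all genes, of which fewer were then measured. A 2-fold threshold left 0 higher and 1 lower member (Odc1), and 935 higher and 1036 lower genes. A stricter interval left 1 higher (Sat1) and 0 lower members, and 1526 higher and 1371 lower genes. The median log2 ratio of the members changed sign, to 0.067 without a minimum, which adds Paox, and to 0.17 with a minimum of 200, which leaves Azin1 and Sat1 alone. Of 48 recomputed member ratios 47 stayed within their counting interval, and the other was Azin1 under plain CPM. Many of these could hardly have left it, as the scalings other than plain CPM were close to TMM. Their fasted factors were 0.894 to 0.901, against 0.894 with TMM. Oaz1, Oaz2 and Sat1 stayed within their intervals under plain CPM, yet lost their higher call. Of 27 recomputed levels per kilobase, all of the fed library, 9 left their counting interval. These were levels of Odc1, Srm, Oaz1, Oaz2 and Sat1, which all have copies. Summing Amd1 with Amd2 could not be run, since the symbol Amd2 is not among the gene rows. No paired analysis was possible because each group has 1 library. Depth limits Odc1 most among the called members, with 41 counts in all, and leaves Paox without a detectable difference.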
